A study of Mus musculus with 2 samples.

Results

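Mir103-1, Mir103-2, Mir107 and Mir33 are 4 of the 2202 annotated mouse microRNA (miRNA) genes, and all 4 lie inside genes of coenzyme A or sterol metabolism. They were taken by gene name. Mir103-1, Mir103-2 and Mir107 lie in Pank3, Pank2 and Pank1, which encode pantothenate kinases, and Mir33 lies in Srebf2, which encodes the sterol-regulated transcription factor SREBP-2. Their reads were counted in 2 small RNA libraries, labelled biological replicates 1 and 2, of heart from male B6CASTF1/J mice (a C57BL/6J and CAST/EiJ hybrid) aged 18 to 20 months. Both libraries belong to 1 group with no treatment, so no conditions were compared. The libraries come from separate biosamples under 1 donor record, so their spread may be technical and may not stand for a spread between animals.

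A miRNA is cut from an RNA hairpin, and 1 of its strands, the mature miRNA, guides repression of messenger RNAs that pair with its seed, bases 2 to 8. The reads of a hairpin can come from its 5p arm or its 3p arm. miR-103 and miR-107 are almost the same molecule and are known in mice as regulators of insulin sensitivity in liver and fat, acting in part through caveolin-1. The host Pank genes encode the enzymes of the first committed step of coenzyme A synthesis, and coenzyme A carries the acyl groups that heart muscle oxidises for energy. miR-33 is known to repress Abca1, the cholesterol exporter, and genes of fatty acid oxidation such as Cpt1a. It is transcribed with Srebf2, which raises cholesterol synthesis and uptake. Neither messenger RNAs nor metabolites were measured here, so these roles are background to the levels below.

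The mature sequences are shown because they set which reads can be told apart between the 3 Pank loci. They are from RefSeq, build GRCm38.p6, written 5′ to 3′, and RefSeq held mature sequences for all 4 genes. Capitals mark the seed.
miR-103-3p from Mir103-1 (chr11:35782447-35782469, plus strand): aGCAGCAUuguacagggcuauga
miR-103-3p from Mir103-2 (chr2:131288103-131288125, plus strand): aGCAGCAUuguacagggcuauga
miR-107-3p from Mir107 (chr19:34820700-34820722, minus strand): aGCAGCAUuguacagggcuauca
miR-33-5p from Mir33 (chr15:82198127-82198147, plus strand): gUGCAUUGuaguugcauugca
miR-33-3p from Mir33 (chr15:82198167-82198188, plus strand): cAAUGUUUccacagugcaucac
The 3p arms of Mir103-1 and Mir103-2 were identical over 23 bases. That of Mir107 differed from them by 1 substitution, G22C, with the base of miR-103 given before the position, counted from the 5′ end. The seed GCAGCAU occurred in miR-103-3p and miR-107-3p and in no other of the 1629 mature miRNA names searched. The seeds of miR-33-5p and miR-33-3p each occurred in that miRNA alone.

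The 5p arms separated the 3 loci better. They are shown because a read that starts at the annotated 5′ end and matches exactly can be given to a single hairpin. A read that lacks base 1 could not be told apart between Mir103-1 and Mir103-2, which differ there alone.
miR-103-1-5p (chr11:35782410-35782432, plus strand): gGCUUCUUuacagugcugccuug
miR-103-2-5p (chr2:131288066-131288088, plus strand): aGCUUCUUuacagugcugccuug
miR-107-5p (chr19:34820737-34820759, minus strand): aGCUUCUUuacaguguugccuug
The 5p arm of Mir103-2 differed from that of Mir103-1 by G1A, and the 5p arm of Mir107 differed from that of Mir103-2 by C16U. All 3 share the seed GCUUCUU, found in no other mature miRNA searched.

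The whole hairpins, from the GENCODE M21 transcripts, diverged mostly outside the arms. In them, capitals in Mir103-1 mark bases that differ in at least 1 of the other hairpins, and capitals in Mir103-2 and Mir107 mark bases that differ from Mir103-1, aligned without gaps.
Mir103-1: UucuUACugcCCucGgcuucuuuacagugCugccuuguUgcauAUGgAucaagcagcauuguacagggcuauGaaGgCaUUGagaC
Mir103-2: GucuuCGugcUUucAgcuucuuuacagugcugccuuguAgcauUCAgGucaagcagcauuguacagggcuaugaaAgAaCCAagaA
Mir107: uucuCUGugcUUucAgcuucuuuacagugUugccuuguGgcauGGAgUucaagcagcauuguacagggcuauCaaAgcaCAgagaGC
Mir103-1 and Mir103-2 were identical at 69 of 86 aligned bases (80.2%), as were Mir103-1 and Mir107. Mir103-2 and Mir107 were identical at 73 (84.9%). The copies that share a whole mature 3p arm were therefore no closer as hairpins than either was to Mir107.

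Stretches read from the 5′ end of each arm were searched among all annotated hairpins, on both strands. A stretch of 16 to 21 bases of the miR-103-3p or miR-107-3p arm lay in 3 hairpins, those of Mir103-1, Mir103-2 and Mir107. From 22 bases on, the Mir107 stretch lay in its own hairpin alone. The Mir103-1 and Mir103-2 stretches lay in both hairpins until 25 bases, which is past the 23 bases of the mature arm. The 5p arms of the 3 genes, and both arms of Mir33, lay in 1 hairpin from 16 bases. The deposited tables give reads that mapped to several places a summary line of their own and count them for no gene. Therefore, where only exact matches are taken, a miR-103-3p read of annotated length cannot be counted for either copy. No source used here names the shortest length that the aligner kept or the mismatches it allowed.

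**Figure D1:**
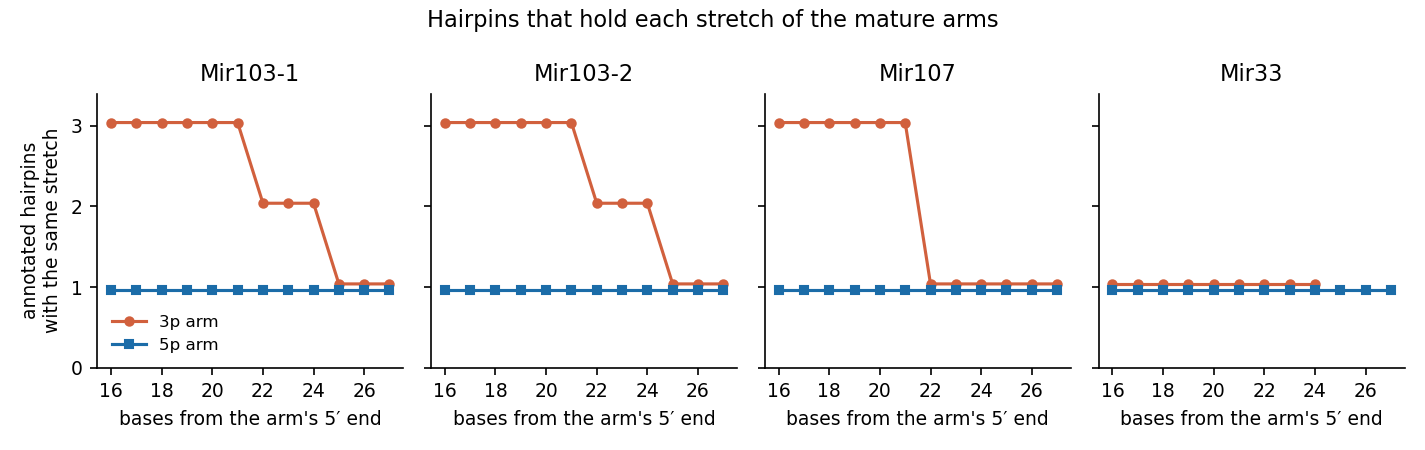
Number of annotated miRNA hairpins (y axis) that hold the same stretch, against the length of the stretch in bases from the 5′ end of the 3p arm (orange circles) or 5p arm (blue squares), for each gene. The lines are set slightly apart so that both can be seen, and the Mir33 3p line ends where its hairpin ends. The 3p stretches of the Pank loci lie in 3 hairpins up to 21 bases, and the Mir107 stretch lies in 1 from 22 bases, the miR-103 stretches from 25.

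All 4 genes sit in introns, on the strand of the host (GENCODE M21, mm10). Mir103-1 (ENSMUSG00000065553.1, chr11:35782396-35782481) lies in intron 5 of Pank3, 688 bases from the 5′ end of an intron of 1740 bases. Mir103-2 (ENSMUSG00000065563.1, chr2:131288052-131288137) lies in intron 5 of Pank2, 454 bases from the 5′ end of an intron of 5801 bases. Mir107 (ENSMUSG00000065594.1, chr19:34820687-34820773) lies in intron 5 of Pank1, 326 bases from the 5′ end of an intron of 7282 bases. The 3 miRNAs thus occupy the same intron by number in 3 paralogous kinase genes, each counted in the longest protein-coding transcript that holds the hairpin in an intron, of 7 exons. Mir33 (ENSMUSG00000065465.1, chr15:82198122-82198190) lies in intron 16 of Srebf2, 335 bases from the 5′ end of an intron of 1848 bases. No other annotated miRNA gene lies within 10 kb of any of the 4, so none shares a cluster.

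Replicate 1 held 3037063 reads in miRNA genes and replicate 2 held 5284446. Levels are reads per 1000000 of these (CPM), from the sense strand column. Values of CPM are not divided by length, since a read stands for 1 small RNA and the mature arms run from 21 to 23 bases. Intervals are 95% Wilson intervals for levels and shares unless named otherwise, and cover counting error only, since reads amplified by PCR without molecular identifiers are not independent molecules. Reads with several places made up 40.7% of replicate 1 and 32.5% of replicate 2, and unmapped reads 19.4% and 34.3%. Heart muscle markers were present: none of 7 was at 0, with Mir208a, from an intron of Myh6, at 5184 and 9154 CPM and Mir499 at 5559 and 5487 CPM. The numbered copies of Mir1a and Mir133a on that list had few counted reads, between 2.63 and 27.7 CPM. Reads with several places are in none of these counts. How many miR-1 or miR-133a reads are left out is therefore not known. The 4 liver marker genes together took 0.0105% and 0.00912% of the reads.

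Mir107, from the Pank1 intron, had the most reads that fell to a single place among the 4 genes, and all levels here count such reads alone. It had 579 reads in replicate 1 and 3924 in replicate 2, which is 191 CPM (interval 176 to 207) and 743 CPM (720 to 766). Its mean was 467 ± 390 CPM (SD, n = 2), rank 89 of 2202 miRNA genes. The SD was close to the mean because replicate 2 lay 3.89-fold above replicate 1. Among the 741 miRNA genes that lie in an intron of a protein-coding gene on the same strand, Mir107 ranked 33, Mir33 101, Mir103-2 105 and Mir103-1 169.

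Mir103-2, the copy in the Pank2 intron, had more such reads than Mir103-1 and far fewer than Mir107; reads of the whole shared 3p arm are in neither count where exact matches are taken. It had 8 reads in replicate 1 and 65 in replicate 2, or 2.63 CPM (1.33 to 5.20) and 12.3 CPM (9.65 to 15.7). The mean was 7.47 ± 6.83 CPM (SD, n = 2), rank 275 of 2202. Mir103-1, the copy in the Pank3 intron, had 0 reads in replicate 1, or 0 CPM (0 to 1.26, where the 3 reads that a count of 0 allows are 0.988 CPM), and 11 reads in replicate 2, or 2.08 CPM (1.16 to 3.73). Replicate 1 thus gave no read for this copy, and its rank by mean level was 432. In replicate 2, the Mir103-1 copy took 14.5% of the 76 reads counted for both copies (exact Clopper-Pearson interval 7.45 to 24.4). In replicate 1 it took none of 8, which allows up to 36.9% by the same interval, so a difference in the split between the libraries was not detectable at this depth.

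Mir33, in the Srebf2 intron, was low in both libraries. It had 30 reads in replicate 1 and 35 in replicate 2, or 9.88 CPM (6.92 to 14.1) and 6.62 CPM (4.76 to 9.21), with a mean of 8.25 ± 2.30 CPM (SD, n = 2) and rank 267. The intervals of its levels overlap. Its arms occur in no other annotated hairpin, also with 1 mismatch allowed, unlike the 3p arms of the miR-103 copies. On the opposite strand, Mir107 had 1 read in replicate 2, and no other member had any.

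**Figure D2:**
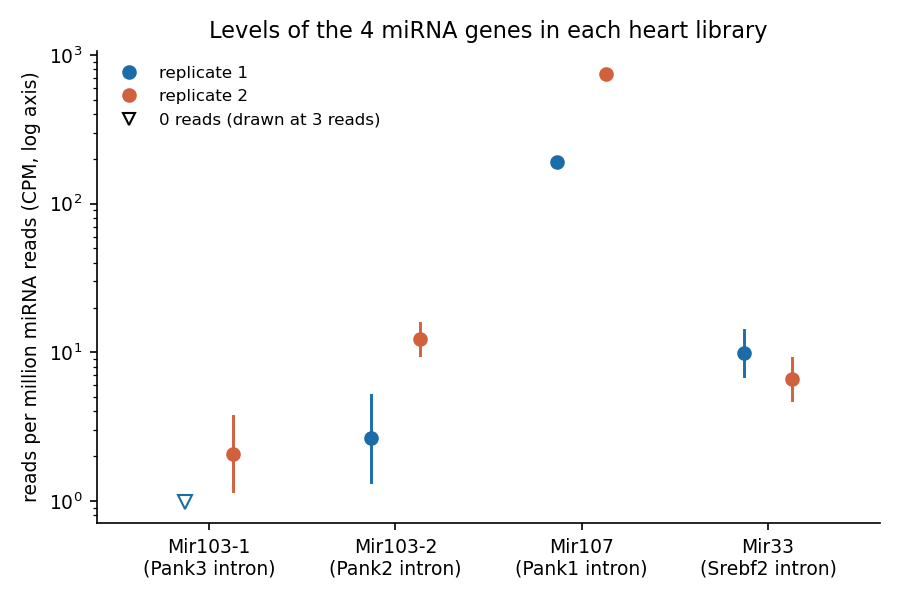
Level of each gene in CPM (y axis, log scale) in replicate 1 (blue) and replicate 2 (orange) with 95% Wilson intervals; the open triangle marks 0 reads, drawn at the level of 3 reads. Mir107 lies at 191 and 743 CPM, and the other 3 genes lie at 12.3 CPM or below.

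A gene was called detected at 10 reads or more in each library, which 321 of 2202 miRNA genes (14.6%) reached. Mir107 (rank 88 among the detected) and Mir33 (rank 264) passed, while Mir103-1 and Mir103-2 did not. In the order of levels, Mir107 lay above the other 3 in both libraries with no overlap. Mir33 and Mir103-2 did not differ beyond their spread: Mir33 was the higher in replicate 1 and the lower in replicate 2. Mir103-1 was below both in each library.

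**Figure D3:**
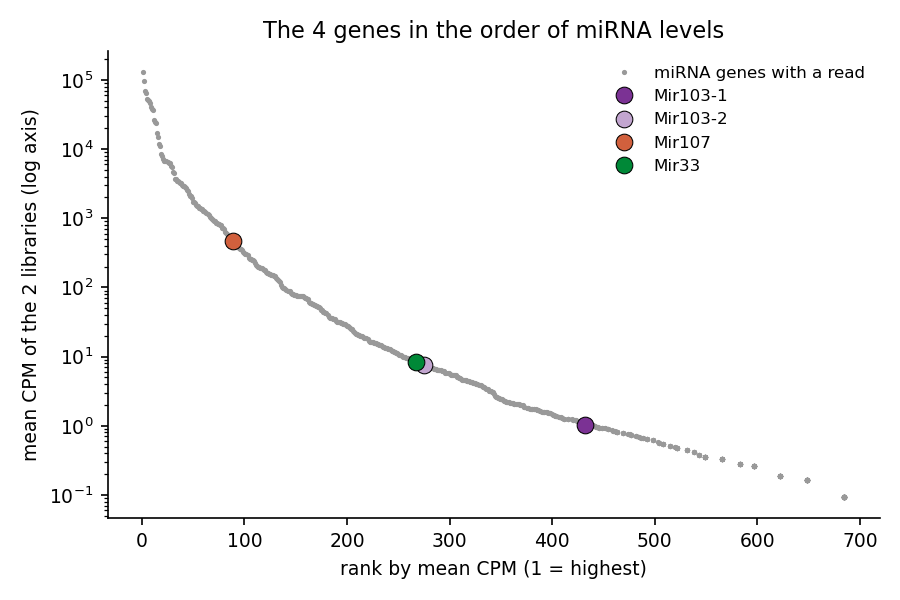
Mean CPM of the 2 libraries (y axis, log scale) against rank for every miRNA gene with a read (grey), with the 4 genes marked in colour. Mir107 sits at rank 89, Mir33 and Mir103-2 sit next to each other at ranks 267 and 275, and Mir103-1 sits at rank 432.

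The copies were set against the single-locus genes within each library, where scaling has no part. The reads of Mir103-1 and Mir103-2 together were 8 against 579 of Mir107 in replicate 1, a ratio of 0.0138 (exact Clopper-Pearson interval 0.00594 to 0.0274). In replicate 2 they were 76 against 3924, a ratio of 0.0194 (0.0152 to 0.0243). On the log2 scale the mean ratio was -5.93 ± 0.34 (SD, n = 2), so the copies were lower than Mir107 by far more than the spread between the libraries. A sign-flip test of 2 libraries has too few arrangements to reach the threshold, so no p is given. These are counts of reads that fell to 1 place, and the 3p arm needs 25 bases at the copies but 22 at Mir107. How many miR-103 reads are among those mapped to several places cannot be read from the tables, so the ratio is not one of miR-103 to miR-107 molecules.

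Of the reads counted for the 3 Pank loci, Mir107 took 98.6% of 587 in replicate 1 (97.3 to 99.3) and 98.1% of 4000 in replicate 2 (97.6 to 98.5). The intervals overlap, and the difference in the split was not tested.

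Against Mir33, the copies gave no stable order. Their reads were 8 against 30 of Mir33 in replicate 1, a log2 ratio of -1.91 (exact interval -3.24 to -0.75), and 76 against 35 in replicate 2, a log2 ratio of 1.12 (0.52 to 1.74). The mean, -0.39 ± 2.14 (SD, n = 2), is smaller than the spread, and each library decides the sign. Mir107 exceeded Mir33 19.3-fold in replicate 1, with 579 against 30 reads (exact interval 13.4 to 28.9). In replicate 2, with 3924 against 35 reads, the excess was 112-fold (80.5 to 161). The direction held in both libraries, but the intervals of the fold do not overlap.

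The libraries were then compared gene by gene. Each gene was tested between replicate 1 and replicate 2 by an exact two-sided binomial test given the library totals, with Benjamini-Hochberg adjustment over the 424 genes whose 2 counts summed to 10 or more. Such a p measures a difference past counting error between these 2 libraries, not between conditions. Of all tested genes, 52.8% differed, 30.9% lower and 21.9% higher in replicate 1. All 3 Pank loci were among those lower in replicate 1, and Mir33 was not called.

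Mir107 had a log2 ratio of replicate 1 over replicate 2 of -1.96 (exact interval -2.09 to -1.84; adjusted p = 6.92e-278, exact binomial test). Mir103-2 had a log2 ratio of -2.22 (-3.49 to -1.16; adjusted p = 3.82e-06, exact binomial test). Mir103-1, with 0 reads against 11, had a log2 ratio of -1.08 with the 0 taken at 3 reads, and the upper limit of its exact interval was -0.53 (adjusted p = 0.0194, exact binomial test). Mir33 had a log2 ratio of 0.58 (-0.18 to 1.32; adjusted p = 0.195, exact binomial test), an interval that includes 0. With the common dispersion of edgeR, a spread of 40.8% between these libraries (biological coefficient of variation), 2.83% of genes were called and none of the 4 members was. There the adjusted p was 0.505 for Mir107, 0.581 for Mir103-2, 0.48 for Mir103-1 and 1 for Mir33 (exact test of edgeR). Before adjustment, the exact test of edgeR gave p = 0.0274 for Mir107, 0.0356 for Mir103-2 and 0.0238 for Mir103-1. The common dispersion was estimated from the same 2 libraries and so already holds the differences under test. The loss of calls therefore does not show that the libraries are alike.

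Marker genes of cell types also differed between the libraries, in both directions. Over all tested genes, 52.8% differed beyond counting error, 30.9% lower and 21.9% higher in replicate 1. The 7 epithelial marker genes took 0.0298% of reads in replicate 1 and 0.387% in replicate 2, with none at 0; 4 of them were lower and 2 higher in replicate 1 beyond counting error. Of these, Mir200c had 251 and 8728 reads and Mir205 had 7 and 10372. The 3 endothelial marker genes took 8.68% and 11.5%, and all 3 were lower in replicate 1. The 3 red blood cell marker genes took 0.820% and 0.254%, with 1 lower and 2 higher in replicate 1. The 7 heart muscle marker genes took 1.08% and 1.48%, with 2 lower and 0 higher. The 4 leukocyte marker genes took 0.656% and 0.724%, with 3 lower and 1 higher. The 2 smooth muscle marker genes took 4.57% and 4.06%, with 0 lower and 1 higher. Of the 4 liver marker genes, 1 was lower and 1 higher. The part of these marker cell types in the lower Mir107, Mir103-1 and Mir103-2 of replicate 1 was not tested, nor was that of the unmapped share given above. In bulk tissue, fewer cells of a type and less RNA per cell cannot be told apart.

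**Figure D4:**
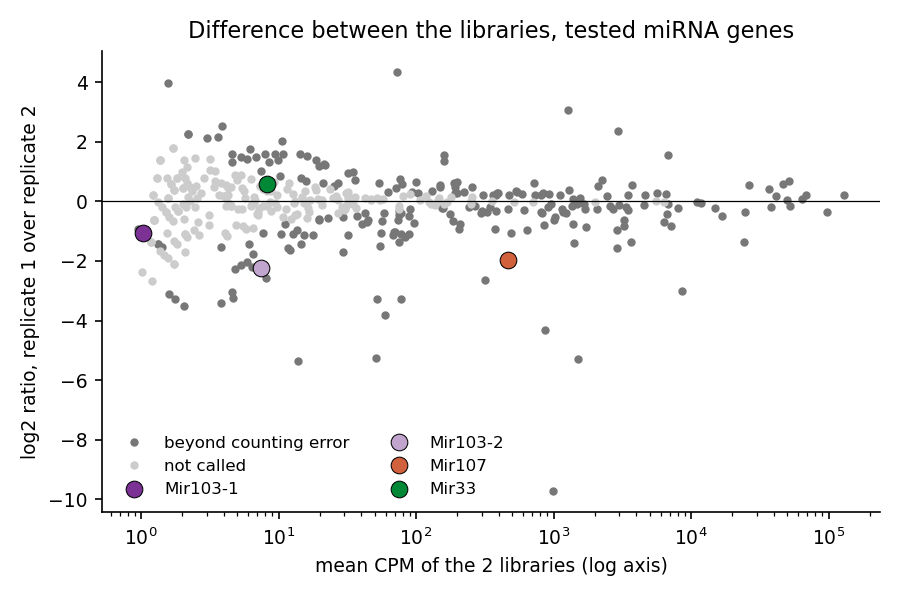
Log2 ratio of replicate 1 over replicate 2 (y axis) against mean CPM (x axis, log scale) for the 424 tested miRNA genes, with genes that differ beyond counting error in dark grey and the 4 members in colour. Counts of 0 are drawn at 3 reads, which places Mir103-1 at -1.08; 26 genes lie below Mir107 at -1.96 and 20 below Mir103-2 at -2.22, while Mir33 lies at 0.58.

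With 2 libraries, likeness of pattern could only be taken as the distance between pairs of log2(CPM + 1) values. By this measure the 3 genes nearest to Mir107 were Mir181b-2 (260 and 495 CPM, distance 0.74), Mir132 (319 and 668 CPM, 0.76) and Mir30c-1 (338 and 425 CPM, 1.15). All 3 were, like Mir107, higher in replicate 2, though by less. Nearest to Mir103-2 were Mir452 (2.30 and 13.8 CPM, distance 0.21), Mir615 (2.30 and 10.6 CPM, 0.24) and Mir493 (9 and 53 reads, 0.30). Nearest to Mir33 were Mir329 (10.2 and 6.81 CPM, distance 0.06), Mir300 (9.22 and 6.43 CPM, 0.10) and Gm27881 (9.22 and 7.19 CPM, 0.14). Nearest to Mir103-1 were Mir470, with 0 and 10 reads, and Mir5119 and Gm23394, with 0 and 14 reads each.

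miR-103 and miR-107 belong to the wider group of miR-15 and miR-107, whose members carry AGCAGCA near the 5′ end and are known to repress cyclins and other cell cycle genes. The motif, searched on the sense strand in bases 1 to 8, was in 12 of 1629 mature miRNA names (0.737%), from 14 genes. It starts at base 1 in miR-103 and miR-107 and at base 2 in the others shown, which shifts the seed by 1 base. Capitals mark the motif.
miR-107-3p (chr19:34820700-34820722, minus strand): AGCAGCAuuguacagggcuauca
miR-15a-5p (chr14:61632075-61632096, minus strand): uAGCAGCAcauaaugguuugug
miR-16-5p from Mir16-1 (chr14:61631936-61631957, minus strand): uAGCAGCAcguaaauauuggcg
miR-195a-5p (chr11:70235062-70235082, plus strand): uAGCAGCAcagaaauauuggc
miR-322-5p (chrX:53054306-53054327, minus strand): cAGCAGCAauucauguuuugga
The list of 8 further genes of the group, chosen by name, held the motif in 7, the exception being Mir503. All 8 were detected, with means from 70.8 CPM (Mir503) to 3475 CPM (Mir322). Of all miRNA genes 14.6% were detected, and of genes named Mir 26.1% without and 30.4% with a copy by name. The list was chosen with earlier results of these data known, so its detected share was not tested against these. Of the motif genes outside the list, the Pank loci aside, Mir195b had a mean of 0.473 CPM, and Mir6342 and Mir6353 had 0. Mir6419, the other such gene, was not among the miRNA genes with a read. The list therefore does not stand for every gene with the motif.

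Mir107, at 467 CPM, lay below 6 of these 8 genes and above Mir16-2 and Mir503 by its mean. In replicate 2 its 743 CPM lay next to Mir16-1 (741 CPM) and Mir497 (752 CPM), while in replicate 1 its 191 CPM lay well under their 868 and 923 CPM. Mir15b (2527 and 3924 CPM) and Mir15a (794 and 1229 CPM), from separate loci, were both lower in replicate 1. Mir195a (2466 and 1737 CPM) and Mir322 (3737 and 3213 CPM) were higher there. Of the 8 genes, 4 were higher and 3 lower in replicate 1 beyond counting error, and their median log2 ratio was 0.10. Over all tested genes 52.8% differed, with a median of -0.07. Mir16-1 and Mir16-2 are copies with 1 mature 5p sequence, as Mir103-1 and Mir103-2 are for 3p, and had 805 ± 89.6 and 123 ± 1.17 CPM (SD, n = 2 each). By reads that fell to 1 place, those copies were both detected, unlike the miR-103 copies. Reads of the whole shared miR-16-5p or miR-103-3p sequence are in none of these counts where exact matches are taken. The contrast is therefore not one of miR-16 and miR-103 molecules.

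**Figure D5:**
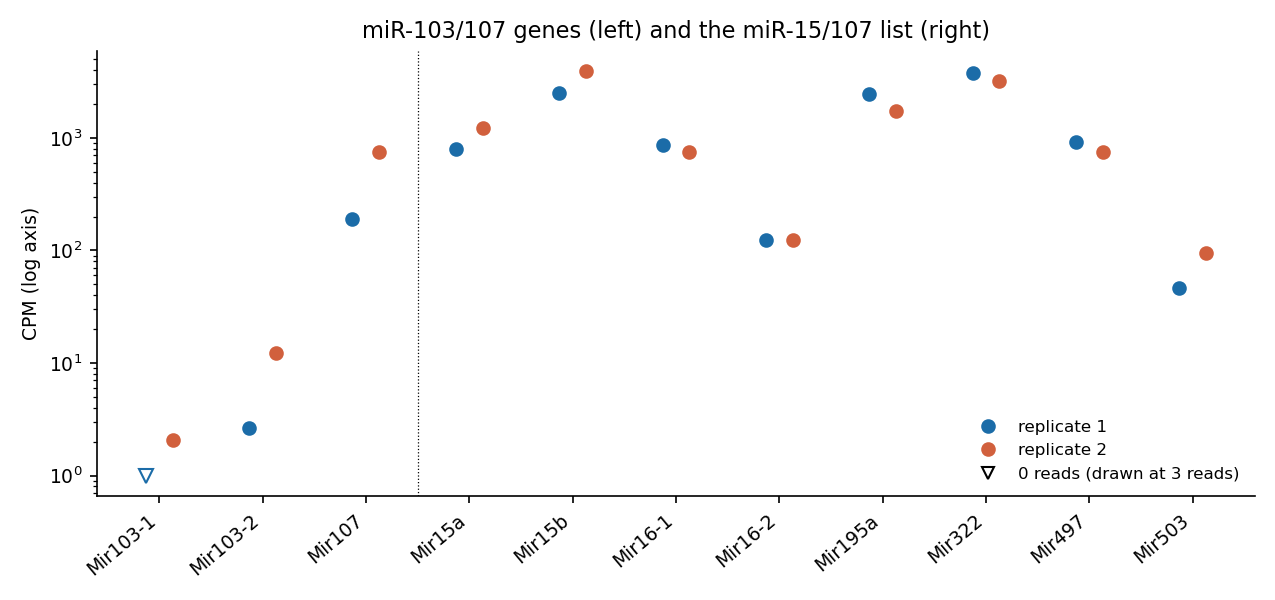
CPM (y axis, log scale) in replicate 1 (blue) and replicate 2 (orange) for Mir103-1, Mir103-2 and Mir107, left of the dotted line, and for 8 further genes of the group, right of it; the open triangle marks 0 reads, drawn at the level of 3 reads. Mir107 at 191 and 743 CPM reaches the level of Mir16-1 and Mir497 in replicate 2 only.

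By name, 138 miRNA genes fall into 53 sets of numbered copies, and 42 of them (30.4%) were detected. Of the 1036 other genes named Mir, 270 (26.1%) were detected. By summed mean level the 2 Mir103 copies, at 8.51 CPM, ranked 23 of the 53 sets, and 25 sets had at least 1 detected copy. Mir103 was not among them. These counts hold only reads that fell to 1 place. Reads of the whole mature arm shared by the 2 Mir103 copies are in neither count where exact matches are taken. The rank and the lack of detection are therefore not measures of how many such mature molecules the heart held.

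Other miRNAs that act on lipids were taken from a list of 16 genes chosen by name. Of these 14 were detected; of the 15 tested, 6 were higher and 8 lower in replicate 1 beyond counting error, with a median log2 ratio of -0.15. Over all genes, 14.6% were detected, and of all tested genes 21.9% were higher and 30.9% lower, with a median of -0.07. Of genes named Mir, 26.1% without and 30.4% with a copy by name were detected. The list was chosen with earlier results known, so its detected share was not tested against these. Mir27b (6354 ± 2073 CPM) and Mir27a (2579 ± 195 CPM), known as repressors of adipocyte differentiation, and Mir34a (3675 ± 2276 CPM), which represses Sirt1, led the list (SD, n = 2 each). Mir185, which represses the HDL receptor gene Scarb1, had 1441 and 1530 CPM. By mean level, Mir33 at 8.25 CPM lay below 14 of the 16 genes and above Mir96 (0 and 49 reads) and Mir758 (0 and 6 reads). In replicate 2, Mir96 was the higher, at 9.27 CPM (7.01 to 12.3) against 6.62 CPM (4.76 to 9.21) for Mir33, with overlapping intervals. There the interval of Mir370, at 7.19 CPM (5.24 to 9.87), also overlapped that of Mir33.

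Several list members are known, like miR-33, to repress Abca1. Mir144, an Abca1 repressor that is also abundant in red blood cells, had 2265 and 271 CPM. Mir148a had 229 and 90.6 CPM, and Mir128-1 had 229 and 149 CPM, all higher in replicate 1. Mir26a-1 (44 and 740 reads) and Mir26a-2 (128 and 573 reads), which share their mature 5p sequence, were lower in replicate 1. All of these genes lay above the level of Mir33 in both libraries, whereas Mir758, another Abca1 repressor, lay below it in both. Mir122, the main miRNA of liver and a regulator of cholesterol there, had 91 and 67 reads, or 30.0 and 12.7 CPM, and Mir370 had 21.4 and 7.19 CPM.

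A list of 12 miRNAs of insulin and energy metabolism, also chosen by name, gave 10 detected genes. Of all miRNA genes 14.6% were detected, and of genes named Mir 26.1% without and 30.4% with a copy by name. The list was chosen with earlier results known, so its detected share was not tested against these. Of its 11 tested genes, 2 were higher and 5 lower in replicate 1, with a median log2 ratio of -0.47; over all tested genes, 21.9% were higher and 30.9% lower, with a median of -0.07. Mir378a, from an intron of Ppargc1b (a coactivator of mitochondrial genes), had 140259 and 120457 CPM, and Mir29a, reported to be raised in diabetic rats, had 14155 and 19670 CPM. Mir143, reported in mice to lower insulin signalling in liver, had 43725 and 38639 CPM, and Mir29c 623 and 1070 CPM. Mir107, at 467 CPM, lay below all of these by mean level. It lay above Mir29b-1 (mean 29.4 CPM) and Mir29b-2 (29.0 CPM), and above Mir375, Mir494 and Mir802. Mir375, of pancreatic islets, had 34 and 130 reads, Mir494 had 7 and 21, and Mir802, a miRNA raised in obese mouse liver, had 0 reads in both libraries, which allows up to 0.988 and 0.568 CPM.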

How the data were processed

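Small RNA libraries (replicates 1 and 2 of 1 group) were read from tables in which the authors deposited raw read counts per miRNA gene, with build mm10 and annotation GENCODE M21 per the text deposited beside them. No source used here names the aligner, the counter or the trimming. Every table has 4 summary lines, kept out of totals, and 3 count columns; the strand column with more reads in miRNA genes was taken as sense. All 2202 IDs matched GENCODE M21. Counts were scaled to CPM. A count of 0 was set to 3 reads in ratios. With 1 group, no quasi-likelihood test was possible, so libraries were compared by exact binomial tests (scipy 1.17.1, threshold 0.05). These were tried on simulated counts that hold counting error only, without the further spread seen between the real libraries. The exact test of edgeR 4.0.16 was the alternative. DESeq2 1.42.0 gave size factors only. Mature sequences of RefSeq were placed by position in 1022 hairpins, and stretches of 16 to 27 bases were searched in annotated hairpins, not in a genome.

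Named genes were the members, the 3 nearest by log2(CPM + 1), and the lists of the miR-15 and miR-107 group, of lipid and of insulin miRNAs. Members and lists were chosen with earlier results of these data known.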

Additional observations from a re-analysis of the deposited data

Results flagged for a closer look

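Reads with several places in the genome, which no gene count holds, numbered 3857758 in replicate 1. In replicate 2 they numbered 6355706. Per read counted in a miRNA gene there were 1.27 and 1.20 of them. They are named here because they lie outside the counts used and far above the 3 reads that a count of 0 allows. The miR-103-3p arm is identical at Mir103-1 and Mir103-2 over its 23 bases. How many of these reads are miR-103 was not tested.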

How the results depend on the processing

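Levels, ranks and ratios were recomputed with TMM and DESeq2 scaling, the column for either strand, other filters and each library left out. By the change of denominator, every member's level shifted: in the column for either strand Mir103-1 had 1.403 CPM, Mir103-2 10.07, Mir107 629 and Mir33 11.1, and per 1000000 of all reads 0.281, 2.08, 131 and 2.48 in that order. With the exact test of edgeR, Mir103-1 (-1.08), Mir103-2 (-2.19) and Mir107 (-1.94) were no longer called and 12 genes were, since that test adds the spread between the libraries. With 100 reads as the minimum, 21 copies by name were detected. With 1 mismatch allowed (chosen after seeing the data), the whole 3p arms of all 3 Pank loci lay in 3 hairpins, as did the Mir103-2 5p arm, and the 5p arms of Mir103-1 and Mir107 in 2. Leaving out a library gave ranks of 363 to 616 for Mir103-1, 242 to 335 for Mir103-2, 77 to 113 for Mir107 and 248 to 283 for Mir33, and log2 ratios of -1.91 to 1.12 for the copies over Mir33, which change sign. Levels then ran from 0 to 2.08 CPM for Mir103-1, 2.63 to 12.3 for Mir103-2, 191 to 743 for Mir107 and 6.62 to 9.88 for Mir33. No paired analysis was possible because there is 1 group. Low counts limit Mir103-1, Mir103-2 and Mir33, with at most 65 reads a library. For the Mir103 copies the counting rule is a further limit apart from depth, since reads with several places are counted for no gene.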

Other observations

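Genes were also grouped, after the values were seen, by the longest stretch that any of their arms needs to lie in 1 annotated hairpin. In the group of 17 tested genes that need 22 or 23 bases, Mir107 had the lowest log2 ratio of replicate 1 over replicate 2 (-1.96). The median of that group was -0.08, and 7 of its genes were lower and 5 higher in replicate 1. In the group of 26 tested genes that need 24 to 27 bases, which holds Mir103-1 and Mir103-2, the median was -0.11, and 10 were lower and 4 higher. Over all tested genes, 30.9% were lower and 21.9% higher, with a median of -0.07. In that group Mir26a-1, at -3.27, was the only gene below Mir103-2. The 299 tested genes that need 16 bases, Mir33 among them, had a median of -0.04, and 21 of those had a ratio below that of Mir107.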
